A study of Danio rerio with 6 samples.

Results

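Keratins are the intermediate filament proteins of epithelial cells. A filament is built from a type I and a type II keratin in equal amounts, so each epithelium expresses members of both families. The larval zebrafish skin has a superficial layer (periderm) over a basal layer of keratinocytes that rests on a basement membrane, and different keratins mark these layers. The epidermal keratin genes described here are the rows of the deposited count table with the symbols krt4, krt5, krt8, krt15, krt17, cyt1, cyt1l and krtt1c19e. All 8 were present, each in 1 row, among 14612 genes in the table, and all 8 were among the 13336 genes tested. The members krt4, krt5 and krt8 encode type II keratins, and krt15, krt17, cyt1, cyt1l and krtt1c19e encode type I keratins.

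Whole zebrafish (Danio rerio) at 7 days post fertilization were pooled, 33 to 35 animals to a sample, and their total RNA was sequenced. Of the 6 pools, 3 had been held in embryo medium with dissolved nucleotides at 10 µM (nucleotide), and 3 in embryo medium alone (control). The sources do not name the nucleotides, the strain or the length of exposure. In the deposited table the exposed columns are headed with carbon monoxide instead, although their library names are those of the nucleotide pools, so the agent is known from the labels only. The skin was not dissected, so for every result below a change in the number of skin cells and a change in RNA per skin cell cannot be told apart. For genes also expressed outside the skin, a change in other tissues cannot be told apart from these either. Library totals ran from 25792829 to 31556366 counts in nucleotide and from 18690465 to 23066970 in control pools. Members had between 2644 and 147789 counts per library, so counting error was small beside the spread between pools. Nucleotide pool 3 stood apart with 8.01% of its counts in skeletal muscle markers, against 5.11% and 5.29% in the other nucleotide pools and 3.97% to 4.86% in control pools.

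Markers of the skin were present in all pools. The transcription factor gene tp63, which defines basal keratinocytes, averaged 78.7 ± 11.7 CPM in nucleotide and 81.3 ± 18.7 CPM in control pools (SD, n = 3 each). CPM are counts scaled to a common library total after TMM normalization, the trimmed mean of M values. The epithelial cadherin gene cdh1 averaged 179.8 ± 8.67 CPM in nucleotide and 178 ± 11.1 CPM in control pools (SD, n = 3 each).

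Together the members held 0.714%, 0.685% and 1.11% of all counts in nucleotide pools 1, 2 and 3, and 0.799%, 0.678% and 0.987% in control pools 1, 2 and 3. The groups overlapped, and the highest share in each group was that of pool 3. The difference of the group means was 0.0146 percentage points, against an SD within groups of 0.200 points.

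In edgeR's quasi-likelihood test without the pool number, 0 of the 8 members passed an adjusted p of 0.05, beside 0.99% of all tested genes (0.937% higher and 0.0525% lower). With any single library left out the count was 0 as well. At an unadjusted p under 0.05 there was 1 member, cyt1l, beside 14.5% of all genes. DESeq2 called 0 members, beside 3.78% of the tested genes to which it gave an adjusted p, and the authors' deposited table called 0, beside 4.12%. Fitting the pool number as a replicate block, which compares pools within same-numbered pairs, gave 3 members past the threshold, beside 19.1% of all genes. Of these krt5 and krt17 were higher in nucleotide pools, beside 10.7% of all genes called higher, and cyt1l was lower, beside 8.38% called lower. With pair 1 left out 2 were higher and 1 lower, without pair 2 the counts were 0 and 1, and without pair 3 they were 1 and 3. Over all genes in these fits 1265 were called higher and 870 lower without pair 1. The counts over all genes were 1150 and 862 without pair 2, and 1010 and 661 without pair 3. Of the 8 members, 3 were higher in all 3 pairs, 1 was lower in all 3 and 4 were mixed, while 53.1% of all tested genes had 1 direction in all 3 pairs. The median log2 fold change was 0.042 over the members and -0.014 over all tested genes.

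**Figure D1:**
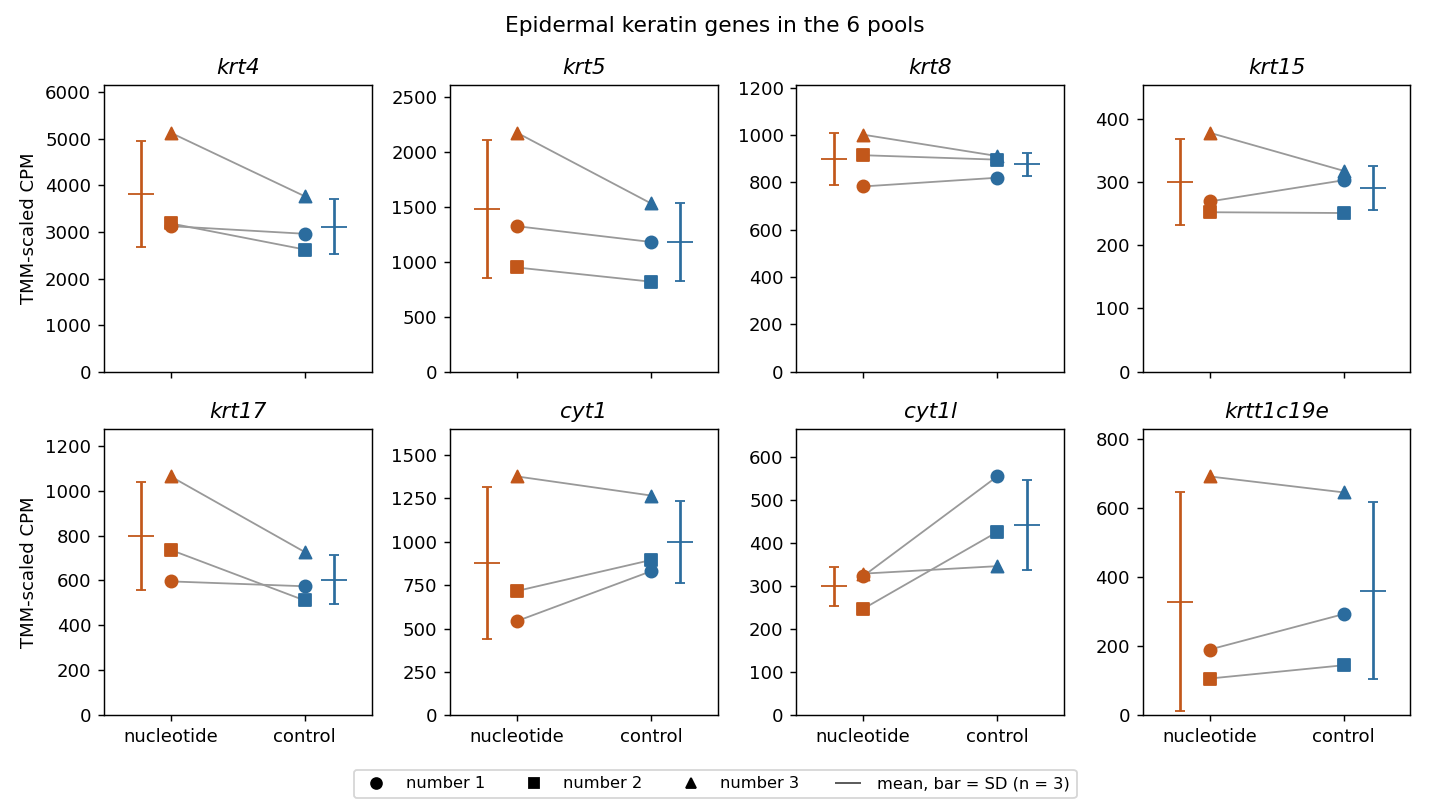
Levels of the 8 keratin genes in each pool, as TMM-scaled CPM on a linear axis from 0, with nucleotide pools on the left and control pools on the right. Lines join pools with the same number and bars show mean and SD (n = 3); pool 3 is the highest of its group for every gene except cyt1l in the control group.

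The type II gene krt4 (NCBI gene 794486), a keratin of the superficial layer whose promoter is widely used to drive transgenes in fish skin, had 3125, 3184 and 5131 CPM in nucleotide pools 1, 2 and 3. The control pools 1, 2 and 3 had 2961, 2623 and 3767 CPM of krt4. Nucleotide pool 3 was the highest of the 6 and the groups overlapped, but within each pair the nucleotide pool was higher. The log2 fold change of krt4 was 0.29 ± 0.227 (SE, edgeR adjusted p = 0.611), with a 95% interval from -0.23 to 0.81. With the block it was 0.27 ± 0.0881, just outside the threshold (adjusted p = 0.0532).

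The type II gene krt5 (NCBI gene 797351), expressed in the stratified skin and in mammals the keratin of basal keratinocytes, had 1325, 949 and 2176 CPM in nucleotide pools 1, 2 and 3. Its levels were 1181, 819.7 and 1533 CPM in control pools 1, 2 and 3. The 3 numbers stood in the same order in both groups, with pool 3 highest and pool 2 lowest, and the nucleotide pool was higher in every pair. Without the block the log2 fold change was 0.33 ± 0.324 (SE, edgeR adjusted p = 0.693), and with it krt5 rose by 0.29 ± 0.0833 (adjusted p = 0.0294). The call was lost when pair 2 was left out, although the estimate was no smaller (0.34 ± 0.147 on the log2 scale, adjusted p = 0.104).

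The type II gene krt8 (NCBI gene 797433), a keratin of simple epithelia that pairs with krt18 and is also made outside the skin, had 783, 915 and 1002 CPM in nucleotide pools 1, 2 and 3. It stood at 820.2, 897 and 912 CPM in control pools 1, 2 and 3. It varied least among the members, with the highest pool at 1.28 times the lowest. Its log2 fold change was 0.039 ± 0.124 (SE, edgeR adjusted p = 0.921), with a 95% interval from -0.25 to 0.33.

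The type I gene krt15 (NCBI gene 406844), in mammals a keratin of the basal layer, had 269, 252 and 378 CPM in nucleotide and 303, 251 and 318 CPM in control pools 1, 2 and 3. Its groups overlapped, and the nucleotide pool was lower in pair 1, nearly equal in pair 2 and higher in pair 3. The log2 fold change was 0.045 ± 0.173 (SE, edgeR adjusted p = 0.936), with a 95% interval from -0.35 to 0.44.

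The type I gene krt17 (NCBI gene 100034647), in mammals a keratin of skin appendages that is also induced by wounding, had 596, 736 and 1063 CPM in nucleotide pools 1, 2 and 3. Control pools 1, 2 and 3 were at 574, 511 and 727 CPM. The nucleotide pool was higher in each pair, by 0.053, 0.53 and 0.55 on the log2 scale, so pair 1 showed almost none of the difference. Without the block the log2 fold change was 0.40 ± 0.225 (SE, edgeR adjusted p = 0.467). With the block krt17 rose by 0.38 ± 0.0950, or 1.30-fold (adjusted p = 0.0181), and without pair 2 or pair 3 it did not pass (0.30 and 0.29, adjusted p = 0.0994 and 0.0853).

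The type I gene cyt1 (NCBI gene 30327), named for the enveloping layer that becomes the periderm, had 543, 716 and 1376 CPM in nucleotide pools 1, 2 and 3. In control pools 1, 2 and 3 it had 829.9, 895 and 1266 CPM. Nucleotide pools spread over a 2.53-fold range and enclosed the control range of 1.53-fold. The log2 fold change was -0.18 ± 0.331 (SE, edgeR adjusted p = 0.853), and -0.27 ± 0.112 with the block (adjusted p = 0.115). By pair it was -0.61, -0.32 and 0.12 for pairs 1, 2 and 3, and with the block and pair 3 left out cyt1 passed as lower (-0.47, adjusted p = 0.005).

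The related type I gene cyt1l (NCBI gene 792062) had 323, 247 and 328 CPM in nucleotide pools 1, 2 and 3. Levels of 554, 425 and 346 CPM were found in control pools 1, 2 and 3. It was the 1 member whose groups did not overlap, as was the case for 21.4% of all tested genes, but nucleotide pool 3 and control pool 3 were close. Without the block the log2 fold change was -0.56 ± 0.191 (SE, edgeR adjusted p = 0.235), with an unadjusted p of 0.0188. DESeq2 gave an adjusted p of 0.0886, and the authors' deposited table gives 0.0829. With the block cyt1l fell by 0.55 ± 0.118 on the log2 scale, to 0.685 times the control level (adjusted p = 0.00821). By pair the log2 difference was -0.78, -0.78 and -0.074 for pairs 1, 2 and 3, so pair 3 showed little of the fall. With any pair left out the blocked call still passed (adjusted p between 5.04e-05 and 0.00504), with log2 fold changes from -0.78 to -0.42. The adjusted p was lower in each of these fits than with all pairs, although they use fewer libraries, and without pair 3 the SE was 0.0547. With so few libraries a gene's own spread is barely estimated, and the p leans on spread borrowed from other genes. Passing in these fits is therefore weak support.

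The type I gene krtt1c19e (NCBI gene 553371), a marker of basal keratinocytes in zebrafish, had 190.1, 106 and 691 CPM in nucleotide pools 1, 2 and 3. The corresponding values in control pools 1, 2 and 3 were 293, 145 and 645 CPM. Both groups had pool 3 far above the others and pool 2 lowest, a span of 6.49-fold over the 6 pools. The log2 fold change was -0.13 ± 0.723 (SE, edgeR adjusted p = 0.954), with a wide 95% interval from -1.80 to 1.54. With the block it was -0.32 ± 0.112 (adjusted p = 0.0676), and without pair 3 krtt1c19e passed as lower (-0.54, adjusted p = 0.00203).

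**Figure D2:**
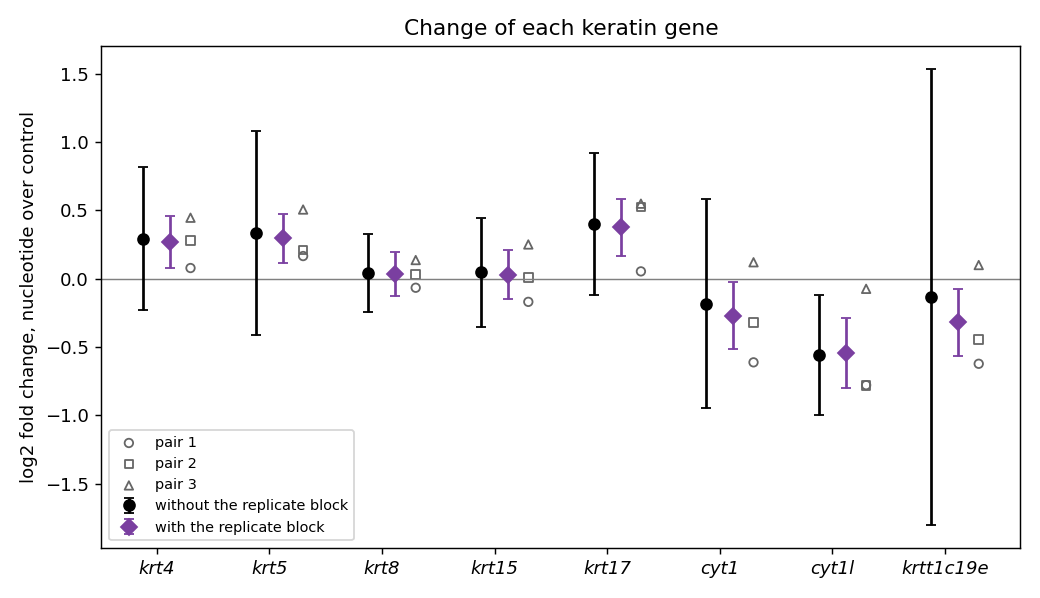
Log2 fold change of each keratin gene, nucleotide over control, without the replicate block (circles) and with it (diamonds), with 95% intervals, and by same-numbered pair (open symbols). With the block krt5 and krt17 lie above 0 and cyt1l below it at an adjusted p under 0.05, and pair 3 gives the highest value for all 8 genes.

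The signed log2 difference, nucleotide minus control, was highest in pair 3 for 8 of 8 members, against 35% of all tested genes. Highest here does not mean largest in size: for cyt1, cyt1l and krtt1c19e pair 3 had the smallest difference in size. The pools of pair 3 include the nucleotide pool with the raised muscle share, and the part of that share in the keratin values was not tested. Without pair 3 the blocked log2 fold changes were 0.18 for krt4, 0.19 for krt5 and 0.29 for krt17, of which krt5 passed (adjusted p = 0.0395). Without nucleotide pool 3 and without the block they were 0.021 for krt4, -0.048 for krt5 and 0.15 for krt17. The 4 members with values below 0 in the blocked fit without pair 3 and above it in pair 3 itself were krt8, krt15, cyt1 and krtt1c19e.

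Most members differed between pool numbers, and pool 3 was the highest in both groups for 7 of the 8. For krt4 and krt17 pool 2 was above pool 1 in nucleotide and below it in control pools. The blocked fit takes number differences as equal in both groups, which was not tested. In the blocked fit the number term, tested over all genes with edgeR's quasi-likelihood test, passed for 6 of the 8 members, beside 25.9% of all tested genes. What a number stands for is not given in the labels, and the test was added after the values had been seen. The fitted range between the 3 numbers was 2.44 on the log2 scale for krtt1c19e (adjusted p = 1.36e-06), 1.05 for krt5 (8.95e-05) and 0.98 for cyt1 (0.000712). For krt4, krt17 and krt15 it was 0.61, 0.58 and 0.47, also past the threshold. For krt8 and cyt1l it was 0.25 and 0.38 and did not pass (adjusted p = 0.109 and 0.112). Number 3 was highest for 7 members, the exception being cyt1l, which was highest in number 1. A range over 3 numbers is wider by construction than a difference of 2 groups of the same spread. For cyt1l the exposure difference (0.55 in size) exceeded its range between numbers (0.38), and for the other 7 members it did not. How often it does so over all tested genes was not computed.

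**Figure D3:**
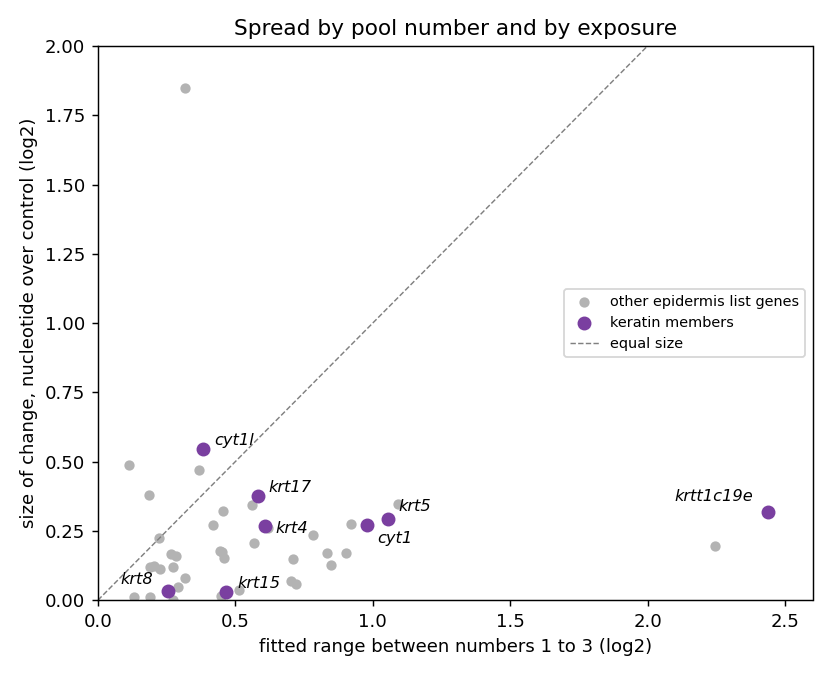
Size of the log2 fold change between nucleotide and control pools in the blocked fit (y axis) against the fitted log2 range between pool numbers 1 to 3 (x axis), for the 8 keratin genes and for other epidermis genes of the lists in the text. Points below the dashed line varied more between numbers than between exposures. Of the members only cyt1l lies above it, and krtt1c19e lies farthest right at 2.44. Some of the other epidermis genes also lie above it, among them the keratin gene krt92 (change 1.85, range 0.32) and cldne (change 0.49). The share of all tested genes above it was not computed.

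The number test passed in other lists as well, in and outside the skin. The fin fold list, whose genes and1 and and2 encode actinodins of the actinotrichia, had 6 of 8 tested members past the number test. The superficial epidermis markers had 11 of 18 and the basal epidermis markers 7 of 14. Keratinocyte transcription factor genes had 4 of 12, and ionocyte and mucous cell markers 7 of 13. Skeletal muscle markers had 17 of 23 and intermediate filament genes outside the keratins 8 of 15. The epithelial adhesion gene epcam had 117, 573 and 109 CPM in nucleotide pools 1, 2 and 3 and 98.8, 453 and 109 CPM in control pools 1, 2 and 3. There pool 2 was the high one in both groups, the pool in which krtt1c19e was lowest. The gene was named after its values were seen.

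Ratios of counts within a library do not depend on how libraries are scaled, though the ratios reflect message lengths as well as levels. Type II members had 2.72, 2.45 and 2.17 times the counts of type I members in nucleotide pools 1, 2 and 3. For control pools 1, 2 and 3 the ratio was 1.94, 1.95 and 1.88. The 3 control pools lay close together, all nucleotide pools lay above them, and the ratio was 1.40, 1.26 and 1.15 times as high in the nucleotide pool of pairs 1, 2 and 3. The means were 2.45 ± 0.279 in nucleotide and 1.92 ± 0.0371 in control pools (SD, n = 3 each). The gene krt4 alone held between 39.4% and 44.8% of the member counts in each library. Without the block the log2 fold changes of the type II members krt4, krt5 and krt8 were 0.29, 0.33 and 0.039. Among type I members krt15 and krt17 were at 0.045 and 0.40, and cyt1, cyt1l and krtt1c19e at -0.18, -0.56 and -0.13. No member passed in that fit. The type I sum leaves out krt18, the partner of krt8, which is not a member. No test was made, since the members were chosen with earlier results known. How often such ratios of other gene sets separate the groups was not computed, while 21.4% of all tested genes did so singly.

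**Figure D4:**
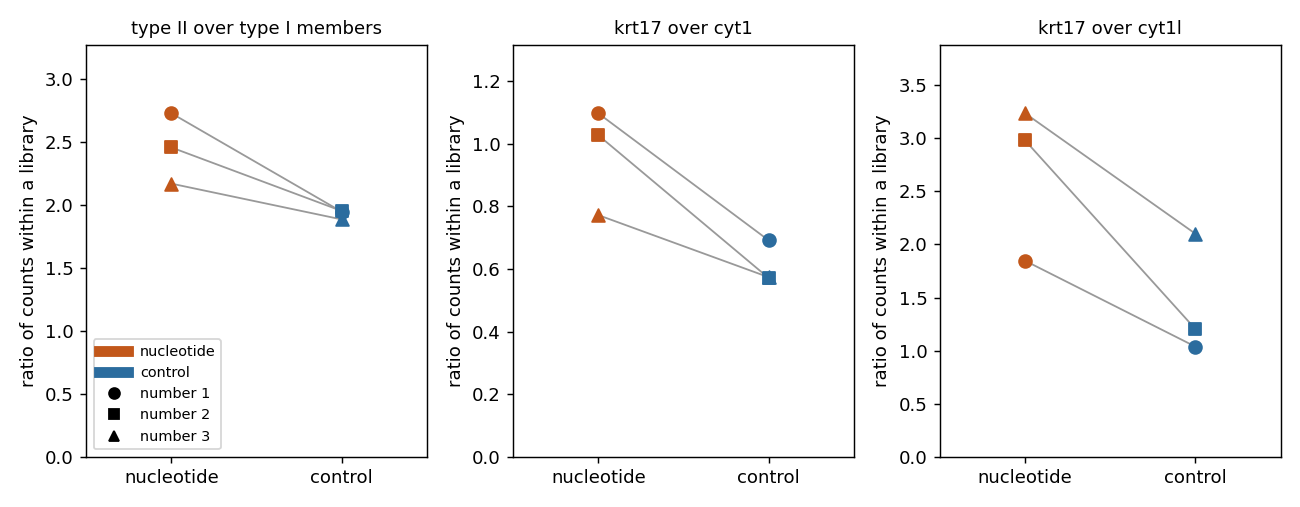
Ratio of counts within each library, nucleotide pools on the left and control pools on the right, on axes from 0, for type II over type I members, krt17 over cyt1 and krt17 over cyt1l. Lines join same-numbered pools; each ratio is higher in the nucleotide pool of every pair, and the first and second do not overlap between the groups.

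Among type I genes the ratio of krt17 to cyt1 was 1.098, 1.03 and 0.773 in nucleotide pools 1, 2 and 3, and 0.692, 0.572 and 0.574 in control pools 1, 2 and 3. The groups did not overlap, and control pools never reached the lowest nucleotide pool. This ratio sets a member with a log2 fold change above 0 against one below it. Ratios of cyt1 to cyt1l, krt4 to krt8, krtt1c19e to krt15 and krtt1c19e to cyt1l were also taken, and each overlapped between the groups. The share of other gene pairs whose ratios do not overlap was not computed. The ratio of krt17 to cyt1l was 1.85, 2.98 and 3.24 in nucleotide and 1.04, 1.20 and 2.101 in control pools 1, 2 and 3. Here the groups overlapped, with control pool 3 above nucleotide pool 1, although each pair had the nucleotide pool higher. The ratio of krtt1c19e to krt5 was 0.143, 0.112 and 0.317 in nucleotide and 0.248, 0.177 and 0.421 in control pools 1, 2 and 3. It was lower in the nucleotide pool of each pair, with overlap between the groups. The ratio of krt5 to krt4, both type II, was 0.424, 0.298 and 0.424 in nucleotide and 0.399, 0.312 and 0.407 in control pools 1, 2 and 3, lowest in pool 2 of both groups.

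Across the 6 libraries most members varied together. Pearson's r of log2 CPM was highest between krt4 and krt17 (0.96), krt15 and krtt1c19e (0.936) and krt15 and krt5 (0.931). It was lower for krt8, from 0.376 with krt5 to 0.805 with cyt1 when cyt1l is left aside. For cyt1l the values with the other members lay between -0.503 and 0.186. These values describe 6 libraries that share pool numbers and differ in depth. Likeness to the mean standardised level of the 8 members was highest for atp5o, an ATP synthase subunit gene (r = 0.999), and nme2b.2, a nucleoside diphosphate kinase gene (0.996). Next came the tenascin gene tnw (0.992), the cartilage collagen gene col9a2 (0.992) and the polyadenylation factor gene cpsf1 (0.989). These were the 5 highest values among 10176 genes that averaged 100 counts or more and had a gene name instead of a clone or locus label, over only 6 libraries.

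The genes lie in arrays. In the RefSeq gene order of the GRCz12tu assembly, used here for names and neighbours only, krtt1c19e (now krt1-19e), krt92, cyt1l, cyt1 and krt17 follow each other with no other protein-coding gene between them. The genes krt5, krt8 and krt18a.1 form a second run, and krt98, krt15 and krt99 also lie side by side. Neighbours differed in their change: with the block krt17 rose by 0.38 and cyt1l fell by 0.55, while cyt1, which lies between them, was at -0.27 and did not pass. Neighbouring copies may share sequence, and the sources do not describe how a read matching more than 1 copy was counted. How far that affects the values of single neighbours was not tested. The row of krt4 also lists krt8 among its older names, so these symbols have been used for each other.

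**Figure D5:**
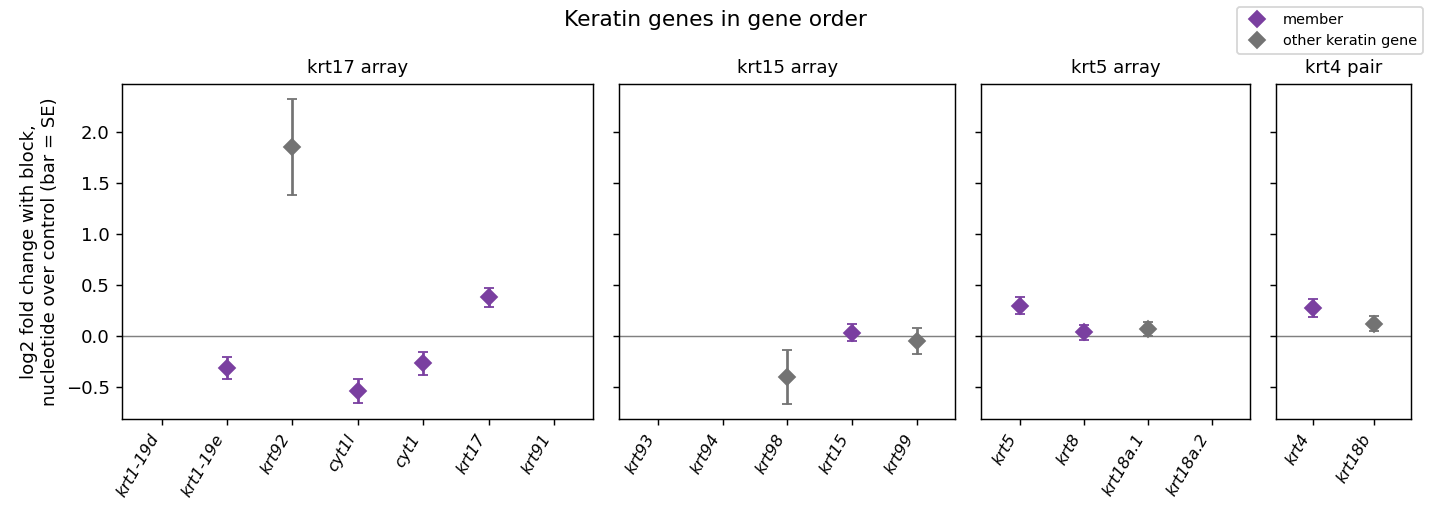
Log2 fold change with the replicate block (y axis, bars are SE) of keratin genes in their order along the GRCz12tu RefSeq annotation (x axis, not to distance), for 3 arrays and 1 pair. Names without a point were not analysed here; krt1-19e is the current name of krtt1c19e, and krt92 stands at 1.85 on at most 32 counts per library.

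Outside the members 7 further keratin rows were in the table. The type I row cki had 0 counts in all libraries. Of the 6 tested, 0 passed without the block in edgeR and 0 of the 5 with an adjusted p in DESeq2, 1 had an unadjusted p under 0.05, and 1 rose with the block. This was zgc:109868, whose current name is krt92 and which lies next to cyt1l. DESeq2 gave it no adjusted p (unadjusted p = 0.0032). It had 19, 22 and 32 counts in nucleotide and 7, 6 and 3 counts in control pools 1, 2 and 3. Its log2 fold change was 1.85 ± 0.474 with the block (adjusted p = 0.0192) and 1.86 ± 0.448 without it (adjusted p = 0.12), and with the block it did not pass without pair 3 (1.31, adjusted p = 0.115). The partner of krt8 in simple epithelia, krt18, averaged 361 ± 35.2 CPM in nucleotide and 344 ± 30.2 CPM in control pools (SD, n = 3 each), a log2 fold change of 0.067 ± 0.118 (SE, edgeR adjusted p = 0.848). The rows krt1-c5, zgc:77517 (krt18b), zgc:110712 (krt99) and zgc:171226 (krt98) had log2 fold changes of 0.19, 0.12, -0.071 and -0.45.

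The lists of other skin genes, some of which share members, held calls in both directions with the block, where 10.7% of all tested genes were called higher and 8.38% lower. Of 18 tested markers of the superficial epidermis 0 passed without the block in edgeR, 3 had an unadjusted p under 0.05, and DESeq2 called 1 higher of the 17 with an adjusted p. With the block 4 were higher and 2 lower, against 2 and 1 without pair 2, 3 and 2 without pair 1, and 5 and 1 without pair 3. The 4 higher include krt92, the low-count keratin row described above, and evpla, which is also counted among the desmosome genes. The median log2 fold change without the block was 0.093. The superficial claudin gene cldne averaged 160.5 ± 8.08 CPM in nucleotide and 114 ± 7.23 CPM in control pools (SD, n = 3 each). It rose with the block (0.49 ± 0.0671, adjusted p = 0.000612) and in DESeq2 (adjusted p = 0.000483), and missed the threshold in edgeR without the block (adjusted p = 0.0647). The transcription factor gene klf17 fell with the block (-0.47, adjusted p = 0.0171). The blocked calls of cldne and klf17 held without any single pair.

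Of 14 tested basal epidermis markers 0 passed without the block in edgeR, 1 had an unadjusted p under 0.05, and DESeq2 called 1 lower. With the block 0 were higher and 4 lower, and the median log2 fold change without the block was -0.14, against -0.014 over all tested genes. The laminin gene lama5, for a chain of the skin's basement membrane, averaged 100.1 ± 6.78 CPM in nucleotide and 130.3 ± 9.07 CPM in control pools (SD, n = 3 each). It fell with the block (-0.38 ± 0.0613, adjusted p = 0.00172), as did itgb4, the hemidesmosome integrin gene (-0.32, adjusted p = 0.00446), cldn1, a claudin gene (-0.35, adjusted p = 0.0193), and jag2b, a Notch ligand gene (-0.23, adjusted p = 0.034). The markers tp63, at -0.048, and col17a1a, a hemidesmosome collagen gene, at -0.22, did not pass. The blocked calls of lama5 and itgb4 held without any single pair, and 2 of the 4 were left without pair 1 or pair 3, where cldn1 and jag2b were lost (adjusted p between 0.0676 and 0.145).

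Desmosome genes, which anchor keratin filaments at cell junctions, had 0 of 8 tested members past the threshold without the block in edgeR and DESeq2, and 0 at an unadjusted p under 0.05. With the block 1 was higher, the envoplakin gene evpla (0.24, adjusted p = 0.0401), and 2 were lower, the desmoglein gene dsg2 (-0.35, adjusted p = 0.0176) and the plakophilin gene pkp3a (-0.28, adjusted p = 0.0448). The counts were 0 higher and 3 lower without pair 1, 0 and 1 without pair 2, and 2 and 0 without pair 3. Without pair 3 dsg2 and pkp3a were lost (adjusted p = 0.134 and 0.237), as was pkp3a without pair 2 (0.104) and evpla without pair 1 or 2 (0.107 and 0.205). The median log2 fold change of the 8 genes without the block was -0.050, and 7 of the 8 passed the number test. Of 12 tested keratinocyte transcription factor genes 0 passed without the block in edgeR and DESeq2, 1 had an unadjusted p under 0.05, and with the block 2 were lower, klf17 and dlx5a (-0.31, adjusted p = 0.0267). Without pair 2 or pair 3 dlx5a was lost (adjusted p = 0.189 and 0.0672). Their median log2 fold change without the block was -0.11.

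Ionocyte and mucous cell markers had 0 of 13 tested members past the threshold without the block in edgeR and DESeq2. At an unadjusted p under 0.05 there were 2. The listed mucin genes muc5.1, muc5.2 and muc5ac were not tested, and the pools were whole animals. With the block 5 were higher, among them the sodium pump subunit gene atp1b1b (0.39, adjusted p = 0.00221), and 1 was lower, foxi3b, a transcription factor gene of ionocytes (-0.43, adjusted p = 0.00668), and the median log2 fold change without the block was 0.040. The count of 5 higher was 3 without pair 1, 4 without pair 2 and 3 without pair 3, with 1 lower each time. Both named calls held without any single pair. Intermediate filament genes outside the keratins, such as vim, desma and gfap, had 0 of 15 tested members past the threshold without the block in edgeR and DESeq2 and 1 at an unadjusted p under 0.05. With the block 0 were higher and 2 lower, the neuronal filament gene inaa (-0.40, adjusted p = 0.00213) and the lens filament gene bfsp2 (-0.26, adjusted p = 0.0171), and the median without the block was 0.021. The call of bfsp2 was lost without pair 1 or 2 (adjusted p = 0.0691 and 0.0717), and the count of 2 lower was 1 without either and 3 without pair 3. Of the 8 fin fold genes 0 passed without the block in edgeR and DESeq2, 1 had an unadjusted p under 0.05, and 0 were higher and 2 lower with the block, hmcn1 (-0.35, adjusted p = 0.0142) and bmp1a (-0.28, adjusted p = 0.00871). The blocked counts were 1 higher and 2 lower without pair 1, 0 and 2 without pair 2, and 0 and 1 without pair 3. The median of the fin fold genes without the block was 0.00044, and hmcn1 was lost without pair 3 (adjusted p = 0.0963).

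By comparison, 4 of 23 tested skeletal muscle markers were higher and 0 lower without the block in edgeR, beside 0.937% and 0.0525% of all tested genes. In DESeq2 10 were higher and 0 lower, beside 3.78% of genes with an adjusted p called in either direction. With the block 18 were higher and 0 lower, beside 10.7% and 8.38% of all tested genes. The count of 4 was 1 without control pool 1, 2 without control pool 2 or nucleotide pool 2, and 3 or 4 without any other single library. With the block 17 were higher without pair 1, 14 without pair 2 and 15 without pair 3, where 1 was lower. The median log2 fold change of the muscle markers was 0.65, whereas the keratin median was 0.042.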

How the data were processed

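The deposited table holds whole-number values for each gene in each library, which were taken here as raw counts. The same table holds the authors' deposited comparison, with a mean signal (normalized count), a log2 fold change with its standard error, a Wald score, and a p-value with an adjusted p-value. The submitters' processing notes name TopHat2, HTSeq and DESeq2 with build GRCz10. No source used here gives the annotation, the strand setting or how multiply matching reads were handled. The table had 14681 rows, of which 69 were removed. The rule removed duplicates of another row (same symbol, same counts) and any row without a symbol.

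Counts were filtered with filterByExpr (minimum 10, minimum total 15) and scaled by TMM. Groups were compared with edgeR 4.0.16 (R 4.3.3), using 2-sided quasi-likelihood tests with p adjusted by Benjamini and Hochberg over all 13336 tested genes at 0.05. DESeq2 1.42.0 was an alternative. The SE was derived from the F statistic, and 95% intervals use the t distribution. Log2 CPM had a prior count of 2. The steps were tested on simulated data that had no differences between pool numbers, so that test does not bear on the pairing. Pools are replicates by label. No source says whether clutches were separate, and p-values reflect differences among these 6 pools, which may be technical.

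Across genes, deviations from group means correlated at 0.546, 0.625 and 0.617 between same-numbered pools. Each value exceeded 0.1, so the numbers were treated as pairs. No source states that same-numbered pools were matched, so that pairing rests on the counts. The library names end in numbers of their own, which are the same within pair 2 and within pair 3 but differ within pair 1. What those numbers stand for is not given. The blocked fits treat pair 1 like the others, and fits without pair 1 are also given for the members. Blocked fits with a pair left out leave little to estimate each gene's own spread, so their p-values lean on spread borrowed from other genes. A call that held without any single pair is weak support for that reason.

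Members and lists were chosen with earlier results of these data known. Named genes are all members, the called list genes or otherwise the 4 with the smallest p, the other keratin rows, and the 5 genes most like the members with a mean of at least 100 counts. A gene that this rule names is not reported here, nor is the count that rests on it. Keratin rows found by their current RefSeq name were added after the table was seen, as was the number test. The genes tp63, cdh1, col17a1a and epcam were named outside this rule, after their values were seen. The genes vim, desma, gfap and and1 were named only as examples of their lists. Not every list gene that the rule allows is given in the text. Lists covered the superficial and basal epidermis, desmosomes, keratinocyte transcription factors, ionocytes and mucous cells, other intermediate filaments, the fin fold and skeletal muscle.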

Additional observations from a re-analysis of the deposited data

How the results depend on the processing

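The count of called genes was 132, against 494 in DESeq2 and 2550 with the replicate block, 39 to 80 with a single library left out, and 2135, 2012 and 1671 with the block and pair 1, 2 or 3 left out. Upper quartile, DESeq2 size factors, library totals and both filters kept it within 1.5 times. Library totals moved the median of all genes to -0.138 on the log2 scale from -0.014, and krt8 and krt15 to -0.089 and -0.088. The genes jupa, krt18 and zgc:77517 were then at -0.0044, -0.061 and -0.0054.

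With the replicate block krt5 (0.29), krt17 (0.38) and cyt1l (-0.55) passed. With the block and pair 1 left out krt5 (0.37), krt17 (0.55) and cyt1l (-0.42) passed. Without pair 2 cyt1l (-0.43) passed. Without pair 3 krt5 (0.19), cyt1 (-0.47), cyt1l (-0.78) and krtt1c19e (-0.54) passed, krt8 and krt15 were at -0.018 and -0.082, and zgc:110712 at 0.076.

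With single libraries left out and no block, 0 members passed. The log2 fold changes then ran from 0.021 to 0.45 for krt4, -0.048 to 0.57 for krt5, -0.040 to 0.14 for krt8, -0.15 to 0.16 for krt15, 0.15 to 0.58 for krt17, -0.66 to 0.074 for cyt1, -0.71 to -0.36 for cyt1l and -1.28 to 0.59 for krtt1c19e. They ran from -0.68 to 0.065 for dsg2, -0.57 to 0.074 for pkp3a, -0.17 to 0.50 for and2, -0.0085 to 0.13 for krt18, -0.32 to 0.12 for zgc:110712 and -0.76 to 0.049 for zgc:171226. The cause of these changes was not tested, beyond the loss of samples that each one entails. The number test kept its side of the threshold for all 8 members under 3 other scalings and 2 other filters.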
